A study of Mus musculus with 48 samples.

Results

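Replication-dependent histone genes encode the linker histone H1 and the core histones H2A, H2B, H3 and H4 that package newly made DNA. They were taken as the genes of the count table whose symbol is Hist1h to Hist4h, or H1f1 to H1f6, or H2ac, H2bc, H3c or H4c followed by a number. The rule found 56 of 20171 genes, of which 6 encode H1, 15 H2A, 14 H2B, 11 H3 and 10 H4. In the RefSeq annotation of GRCm38.p6, 50 lie on chromosome 13 between positions 21715711 and 23764412, and 6 lie on chromosome 3 between 96221072 and 96263317. A single one, H2bc6, overlaps another annotated gene there, the long non-coding RNA gene Gm33387, and 55 overlap none.

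These genes are transcribed mainly in S phase, and their messenger RNAs end in a conserved stem-loop in place of a poly(A) tail. The stem-loop binding protein, encoded by Slbp, holds that end through processing, transport and translation. When DNA synthesis stops, the mRNAs are broken down quickly. That decay adds a short uridine tail at the end and involves the RNA helicase Upf1, better known for nonsense-mediated decay.

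The study sequenced total RNA from mouse embryonic stem (ES) cells, as an input lysate and as the RNA bound to beads carrying an antibody to the HA tag. The cells are 129S6/SvEvTac ES cells, grown with LIF on gelatin, and all groups carry a GFP reporter named yGlob GFP_5xT71BS and a stable FLAG-Cas9 transgene. There are 4 genotypes. The first is an untagged control. The second, called HA-Tnrc6a here, carries an HA-AVI tag on Tnrc6a, a GW182 protein that binds Argonaute proteins in microRNA silencing. The others are this tagged line with Ago2-/-, an Argonaute gene, and the tagged line with Upf1-/-. Each genotype was taken through the immunoprecipitation (IP) in experiments numbered 3 and 4, with 3 libraries for each genotype, fraction and experiment, hence 16 groups and 48 libraries. The labels speak of triplicate dishes and do not state how many clones stand behind a genotype, so the p-values measure the spread between these samples, which may be technical. The table's column names number 6 libraries for each genotype and fraction. Their assignment to the experiments, 1 to 3 to experiment 3 and 4 to 6 to experiment 4, is inferred, and changes averaged over both experiments do not depend on it.

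Library totals ran from 15383953 to 19595405 counts in the experiment 3 inputs, 26458831 to 37179105 in the experiment 4 inputs, 11471544 to 18344233 in the experiment 3 IPs and 25724085 to 73845953 in the experiment 4 IPs. Ago2 mRNA was lower in the Ago2-/- inputs, at 94.6 ± 2.2 CPM (counts per 1000000 counts of the library, scaled by TMM, a correction for library composition; SD, n = 3) against 207 ± 2.62 in HA-Tnrc6a in experiment 3, and 130 ± 5.65 against 316 ± 11.6 in experiment 4. Upf1 mRNA was not lower in the inputs labelled Upf1-/-, at 122.9 ± 0.874 CPM against 77.6 ± 4.95 in experiment 3 and 139 ± 3.47 against 98.5 ± 1.58 in experiment 4, so that genotype is called the Upf1 knockout label below. Pou5f1, the gene that defines pluripotent cells, averaged 1479 CPM over the inputs, while of 19 marker genes of other lineages 16 are in the table used here and the highest, Thy1, averaged 26.0 CPM. In experiment 3, HA-Tnrc6a input replicate 3 stood apart from replicates 1 and 2. A chi-square per degree of freedom over all genes was 32.0 and 27.0 against them and 2.59 between them, in a range of 1.93 to 34 over all pairs within a group. Among these 3 libraries 36 of the 56 histone genes were highest in replicate 3, against 12 and 8 in the others. The same count was not made over all genes, so whether it is particular to histone genes was not tested. The non-coding RNAs Rpph1, the RNA of RNase P, and Rmrp, the RNA of RNase MRP, looked at after their values were seen, read 14.5 and 4.51 CPM there, against 2.29 and 3.39 CPM for Rpph1 and 0 and 0.565 CPM for Rmrp in the other two.

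The promoters show how the classes differ in sequence. RefSeq windows of 300 bases, 250 before and 50 after the start, matched 50 of the 56 genes. The octamer ATTTGCAT or its complement ATGCAAAT, the binding motif of Oct transcription factors, occurred in 4 of 14 H2A and 4 of 12 H2B windows and in none of H1, H3 or H4, or in 16% of the 50 against 1.75% of all 27025 genes with a window. CCAAT or its complement ATTGG, the motif of NF-Y, occurred in 86%, against 37.9% of all windows, and was in each H1, H2A, H2B and H3 window but in 2 of 9 H4 windows. TATAAA or its complement TTTATA occurred in 56% against 14.2%, and between 20 and 40 bases before the start in 20% against 2.75%. Both strands were searched, and a match was counted whether or not it overlapped a match to another motif. There were 8 pairs of an H2A and an H2B gene set back to back, with starts 164 to 268 bases apart, among them H2ac8 and H2bc8 at 180 bases. The windows of such a pair overlap, so a match between the starts can be counted for both genes. The octamers of H2ac8 and H2bc8 are the same bases, as are those of H2ac12 and H2bc12. The 120 bases before the start follow for 5 genes on which the results turn or which show the motifs. They are read 5′ to 3′ on the gene's strand, with octamer, CCAAT and TATA matches in capitals. H1f2 is the linker histone gene that alone was enriched with Tnrc6a. H1f4 is one that was depleted. H2bc8 holds both an octamer and a TATA match, H4c4 a TATA match close to its start, and H2bc23 has a window identical to that of H2bc24.
H1f2, chr13:23738687-23738806, plus strand, GRCm38.p6: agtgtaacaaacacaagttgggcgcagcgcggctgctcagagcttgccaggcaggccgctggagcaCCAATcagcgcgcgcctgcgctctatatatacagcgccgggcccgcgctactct
H1f4, chr13:23622559-23622678, minus strand, GRCm38.p6: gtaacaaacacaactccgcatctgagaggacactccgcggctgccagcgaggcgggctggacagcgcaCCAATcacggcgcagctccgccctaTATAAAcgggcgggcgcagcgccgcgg
H2bc8, chr13:23571280-23571399, plus strand, GRCm38.p6: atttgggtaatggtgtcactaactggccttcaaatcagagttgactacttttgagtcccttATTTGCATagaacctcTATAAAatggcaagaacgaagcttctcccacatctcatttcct
H2bc23, chr13:21810200-21810319, minus strand, GRCm38.p6: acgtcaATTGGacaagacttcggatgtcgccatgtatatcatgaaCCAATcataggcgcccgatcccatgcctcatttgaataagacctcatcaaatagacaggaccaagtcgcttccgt
H4c4, chr13:23581448-23581567, plus strand, GRCm38.p6: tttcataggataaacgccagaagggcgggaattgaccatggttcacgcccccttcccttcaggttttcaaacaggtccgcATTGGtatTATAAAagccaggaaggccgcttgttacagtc

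The H2bc23 and H2bc24 windows are identical over all 300 bases. Longest identical runs of 285, 231, 219 and 200 bases joined H4c18 with H4c17, H3c14 with H3c15, H2ac19 with H2ac18 and H2ac24 with H2ac23. Whether their transcripts are alike enough for reads to be shared was not tested, so the counts of these genes are taken as uncertain.

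Replication-dependent histone RNA was scarce in these libraries. The 56 genes together took 585 to 2734 counts in a library, or 0.00320% to 0.0141% of its total. H2bc4, an H2B gene, and H1f2, an H1 gene, made up 24.1% to 63.2% of their summed CPM. Mean counts per library were 50 or more for 5 members and under 10 for 14, and each gene in the table reaches at least 11 counts in some library. Over the 24 inputs, the level per kilobase of the table's gene length had a median of 1.1 CPM per kb over the members (0.112 to 13.6), against 3.35 over all genes (quartiles 0.790 and 11). By this measure 53 of 56 members lay under the median of all genes and 15 below the lower quartile. H2bc4 stood highest at 13.6 CPM per kb, the 78.8th percentile of all genes, then H1f2 at 4.48 (56th) and H2bc12, another H2B gene, at 3.44 (50.5th). The class medians were 1.93 CPM per kb for H2A, 1.09 for H3, 1.00 for H2B, 0.847 for H4 and 0.521 for H1. The table's lengths bear on this: for 12 members they exceed 1.5 times the RefSeq span, as for H1f3 with 7425 against 776 bases and H1f2 with 1560 against 725. Other RNAs of which all or part end without a poly(A) tail averaged 2.44 (Rn7sk), 2.77 (Rpph1), 0.745 (Rmrp), 127 (Malat1) and 88.5 (Neat1) CPM over the inputs. How well these libraries capture such RNAs was not tested. Whether the counted histone RNA ends at the stem-loop or beyond it was not tested either.

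**Figure D1:**
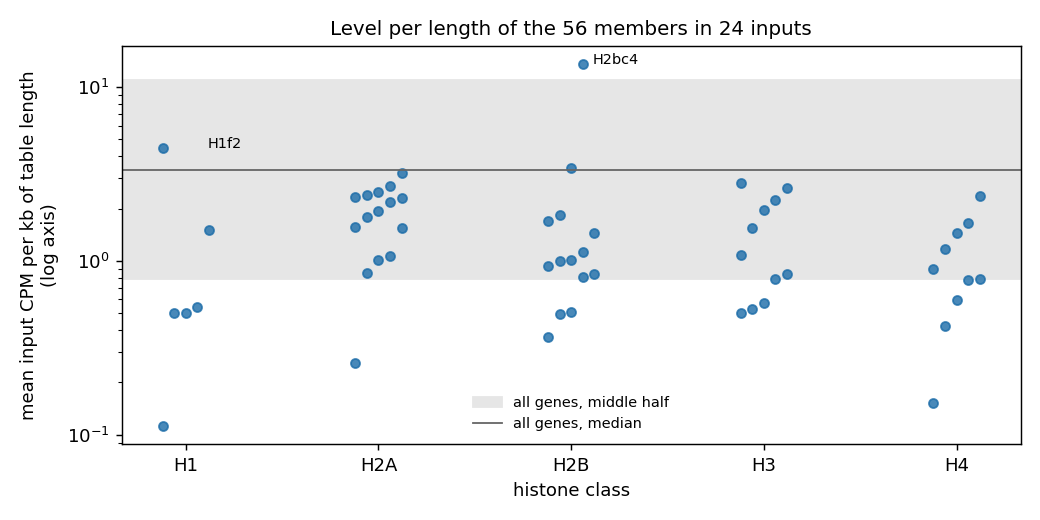
Mean level over the 24 inputs in CPM per kb of the table's gene length (log axis) for each of the 56 replication-dependent histone genes, 1 point a gene, by class. The grey band and line are the quartiles and median of all genes; H2bc4 at 13.6 and H1f2 at 4.48 CPM per kb stand highest, and 53 of 56 points lie under the median of 3.35.

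Of the 11 replication-independent histone genes, whose mRNAs are mostly polyadenylated, mean input levels ranged from 18.6 CPM for Macroh2a2 to 600 CPM for H2az1. The highest 5 were H2az1 (a variant H2A), H3f3b and H3f3a (both encoding H3.3) at 542 and 390, H2ax (the H2A variant of DNA damage signalling) at 539 and H1f0 (a linker histone of resting cells) at 397. H2bc4 averaged 15.7 and H1f2 6.99 CPM. Per kb of table length, Macroh2a2 had 8.54 CPM per kb, less than the 13.6 of H2bc4.

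The inputs of the 2 experiments differed in level. The members' summed CPM in HA-Tnrc6a was 108, 110 and 131 in experiment 3 (117 ± 12.7, SD, n = 3) and 59.0, 58.1 and 58.4 in experiment 4. In the untagged control it was 95.4, 85.1 and 87.8, and then 54.3, 53.6 and 53.1. Each experiment 3 input was above each experiment 4 input of the same genotype.

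With the Upf1 knockout label, 21 members of all 5 classes fell in the inputs on the average of both experiments, and none rose. The fall was larger in experiment 3, and the changes of the 2 most abundant members differed between the experiments. The summed CPM was 65.3, 71.3 and 73.8 in the experiment 3 inputs of this label, each below the 3 HA-Tnrc6a libraries of 108, 110 and 131. In experiment 4 it was 55.4, 53.5 and 58.2, and 1 library overlapped the HA-Tnrc6a range of 58.1 to 59.0. The label's mean in experiment 4, 55.7, was above the untagged mean of 53.7, while in experiment 3 it was 70.1 against 89.4 untagged. In lysates, fewer cells making these RNAs and less RNA in each cell cannot be told apart. By edgeR's quasi-likelihood test on the change averaged over both experiments, with Benjamini-Hochberg adjustment over all 19444 genes tested, 54 members were tested and 21 (38.9%) were lower at an adjusted p under 0.05. The background was 29% of all genes lower and 29.5% higher. No member was higher, also by DESeq2 and at an unadjusted edgeR p under 0.05. The median log2 change over tested members was -0.52 (all genes -0.02), or -0.79 within experiment 3 and -0.28 within experiment 4. Tested in experiment 4 alone, 1 member was lower and 1 higher. That fit uses fewer samples, and the share of all genes called in it is not given here. The falls spread over 4 of 6 H1, 6 of 15 H2A, 5 of 13 H2B, 4 of 11 H3 and 2 of 9 H4 genes tested.

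H3c14, a core H3 gene of the chromosome 3 cluster, fell in both experiments. Its HA-Tnrc6a inputs read 2.84, 3.28 and 2.45 CPM in experiment 3, and those of the Upf1 label 0.899, 1.5 and 1.24. In experiment 4 they read 1.54, 1.13 and 1.39 against 0.321, 0.499 and 0.711. The groups did not overlap in either experiment, and the averaged log2 change was -1.30 ± 0.20 (SE, adjusted p = 2.29e-07 by edgeR). H3c15, with which it shares a promoter run, fell by 1.20 ± 0.32 (adjusted p = 0.00114 by edgeR).

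H1f2, a linker histone, behaved otherwise. In experiment 3 its inputs read 7.91, 8.59 and 10.3 CPM in HA-Tnrc6a and 4.26, 5.11 and 5.18 with the Upf1 label, with no overlap. In experiment 4 they read 8.10, 7.21 and 7.75 against 7.88, 8.85 and 8.30, and overlapped. The averaged log2 change was -0.38 ± 0.085 (adjusted p = 0.000134 by edgeR), made of -0.90 in experiment 3 and 0.13 in experiment 4. The difference between the experiments was 1.03 ± 0.17 (adjusted p = 1.71e-05 by edgeR).

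H2bc4 showed the same split. Its experiment 3 inputs read 24.2, 24 and 22 CPM in HA-Tnrc6a and 12.4, 14.3 and 16.0 with the Upf1 label. Its experiment 4 inputs read 12.5, 16.5 and 14.5 against 16.9, 12.4 and 15.0. The groups were apart in experiment 3 and overlapped in experiment 4, with log2 changes of -0.73 and 0.05, an average of -0.34 ± 0.074 (adjusted p = 0.000242) and a difference of 0.78 ± 0.15 (adjusted p = 0.000414, both by edgeR).

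H4c9, an H4 gene, went opposite ways and its average did not pass the test (0.02 ± 0.16, adjusted p = 0.927 by edgeR). It read 3.06, 3.16 and 2.78 CPM in HA-Tnrc6a and 1.51, 2.01 and 1.73 with the Upf1 label in experiment 3, then 1.14, 1.22 and 0.838 against 1.75, 1.86 and 1.97 in experiment 4. The groups were apart both times, lower with the label in experiment 3 and higher in experiment 4, and the difference between experiments was 1.61 ± 0.32 (adjusted p = 0.000268 by edgeR). In all, the change of 7 of the 54 members tested differed between the experiments, each less negative or higher in experiment 4. This is near the 11.6% of all genes that differed, so it is not read as particular to the members. A fit over all 48 libraries called 4. The 7 were H1f2, H1f5, H2bc4, H2bc24, H4c2, H4c9 and H4c12.

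The 4 highest H2A genes read lower on average, and 3 of them passed. H2ac8, which shares its promoter region with H2bc8, read 4.09, 3.05 and 3.98 CPM in HA-Tnrc6a and 2.41, 1.96 and 2.27 with the Upf1 label in experiment 3, then 1.7, 1.52 and 2.25 against 1.81, 1.07 and 1.45. The groups overlapped in experiment 4, and the average change was -0.54 ± 0.15 (adjusted p = 0.00236 by edgeR). H2ac24 fell by 0.63 ± 0.19 and H2ac11 by 0.66 ± 0.21 (adjusted p = 0.00444 and 0.00593 by edgeR), and H2ac23 had -0.40 ± 0.20 (0.0863). Of the other linker histones, H1f3 fell by 1.13 ± 0.29 (adjusted p = 0.000801 by edgeR). Its HA-Tnrc6a inputs in experiment 3 read 1.15, 1.24 and 2.97 CPM, the last in the library that stands apart, against 0.379, 0.310 and 0.918.

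Of the 4 highest H2B genes, 3 did not pass. H2bc23 had -0.08 ± 0.14, H2bc24 -0.20 ± 0.14 and H2bc21, on chromosome 3, 0.14 ± 0.15. H2bc21 read 3.06, 4.63 and 3.74 CPM in HA-Tnrc6a and 4.40, 3.77 and 4.86 with the Upf1 label in experiment 3, and 1.51, 1.46 and 0.943 against 1.26, 1.43 and 1.45 in experiment 4. Its groups overlapped both times. Without HA-Tnrc6a input replicate 3 of experiment 3, 15 members were lower in place of 21, with a median of -0.38, and H1f1 had -0.39 (adjusted p = 0.178 by edgeR) in place of -0.56 ± 0.23 (0.033). The shares of all genes called in fits that leave out a library are not given here. Such counts are therefore not read as particular to the members. H1f1 also missed the threshold without any 1 of 4 other libraries (adjusted p = 0.0512 to 0.148 by edgeR).

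**Figure D2:**
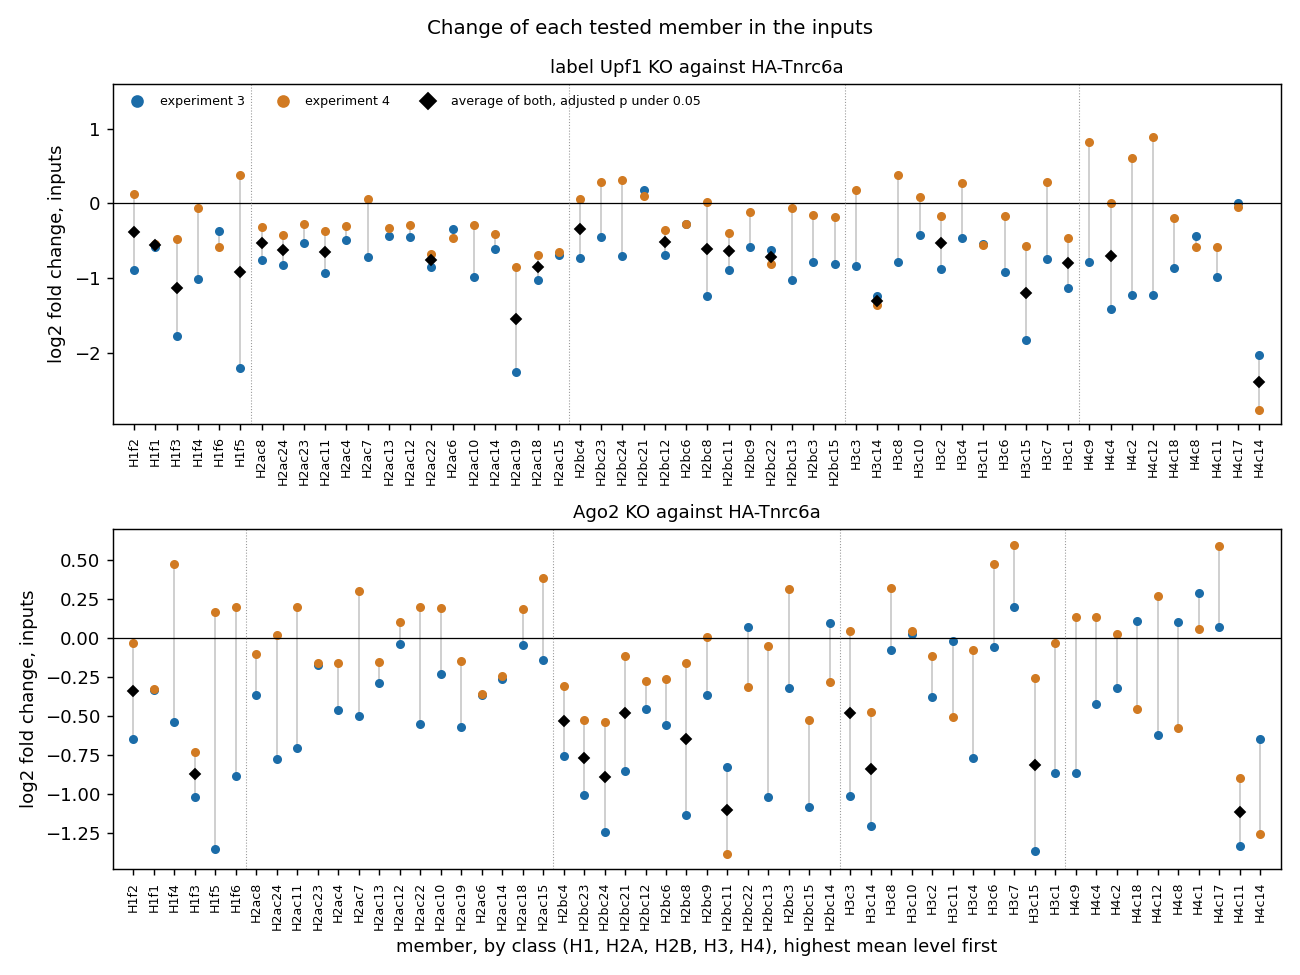
Log2 fold change of each tested member in the inputs against HA-Tnrc6a, for the Upf1 knockout label (upper) and the Ago2 knockout (lower); circles are the changes within experiment 3 (blue) and experiment 4 (orange), and black diamonds the average where it passed (adjusted p under 0.05). In the upper panel 52 of 54 members lie under 0 in experiment 3 and 37 in experiment 4, and 21 have a diamond; the lower panel has 12.

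In the Ago2 knockout, 12 members fell in the inputs against HA-Tnrc6a and none rose, and 6 of the 12 encode H2B. This comparison shares its HA-Tnrc6a inputs with the one above, so the changes are not independent. Summed CPM was 74.2, 84.5 and 72.9 in experiment 3, all below the HA-Tnrc6a libraries, and 50.2, 52.9 and 54.7 in experiment 4, again all below 58.1 to 59.0. The knockout's mean was 77.2 against 89.4 untagged in experiment 3. In experiment 4 it was 52.6 against 53.7 untagged, and the libraries of these 2 genotypes overlapped. The knockout was not tested against the untagged control. By edgeR 12 of 56 members (21.4%) were lower at an adjusted p under 0.05, where 15.2% of all genes were lower and 15.7% higher, and none was higher, also by DESeq2 and at an unadjusted p under 0.05. The median log2 change was -0.26 (all genes -0.01), or -0.48 in experiment 3 and -0.09 in experiment 4. Those lower were 2 H1, 6 H2B, 3 H3 and 1 H4 genes and no H2A gene.

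H2bc4 had inputs of 12, 14.4 and 15.4 CPM in the Ago2 knockout against 24.2, 24 and 22 in experiment 3, and 11.1, 12.1 and 11.7 against 12.5, 16.5 and 14.5 in experiment 4. The groups did not overlap in either experiment, and the average log2 change was -0.53 ± 0.067 (adjusted p = 1.74e-08 by edgeR). The change was less in experiment 4 (-0.31) than in experiment 3 (-0.75), a difference of 0.44 ± 0.13 (adjusted p = 0.0389 by edgeR).

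H2bc24 read 1.5, 1.52 and 1.65 CPM against 2.89, 4.29 and 3.88 in experiment 3, and 1.19, 1.29 and 1.45 against 1.96, 2.00 and 1.76 in experiment 4. H2bc23 read 1.78, 1.8 and 1.87 against 3.49, 3.45 and 4.03, and then 1.19, 1.34 and 1.30 against 2.28, 1.7 and 1.55. Neither gene's groups overlapped, and both fell, by 0.89 ± 0.15 and 0.77 ± 0.15 (adjusted p = 1.06e-05 and 8.96e-05 by edgeR). With the Upf1 label the same genes had -0.20 ± 0.14 and -0.08 ± 0.14, and whether the 2 genotypes differ was not tested.

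H3c14 fell here too, by 0.84 ± 0.19 (adjusted p = 0.000389 by edgeR), with inputs of 0.843, 1.24 and 1.65 CPM in experiment 3 and 0.841, 1.06 and 1.03 in experiment 4, all below the HA-Tnrc6a libraries of their experiment. H1f2 read 6.46, 6.02 and 4.57 CPM in experiment 3, below the HA-Tnrc6a libraries, and 8.24, 6.94 and 7.40 in experiment 4, among them. Its average was -0.34 ± 0.090 (adjusted p = 0.00282), and its change also differed between experiments, by 0.61 ± 0.18 (0.0317, both by edgeR). H1f2 and H2bc4 were the 2 of 56 members with such a difference, a share not above the 5.94% of all genes that had one. A fit over all 48 libraries called 0 members here. Of the 12 fits that leave out 1 library, 9 called 1 member here, the fit without HA-Tnrc6a input replicate 3 of experiment 4 called 0, and the fit without Ago2 knockout input replicate 2 of experiment 3 called 4. H2bc11 fell by 1.11 ± 0.25, H2bc21 by 0.48 ± 0.17 and H3c3 by 0.48 ± 0.18 (adjusted p = 0.000468, 0.0263 and 0.0324 by edgeR). H2bc21 missed the threshold without any 1 of 7 libraries (adjusted p = 0.0554 to 0.0948) and H3c3 without any 1 of 5 (0.0554 to 0.0826, both by edgeR). Without the library that stands apart, 7 members were lower in place of 12 and the median was -0.18, and H1f3 had -0.57 (adjusted p = 0.109) in place of -0.88 ± 0.26 (0.00704 by edgeR). The share of all genes called in that fit is not given here.

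**Figure D3:**
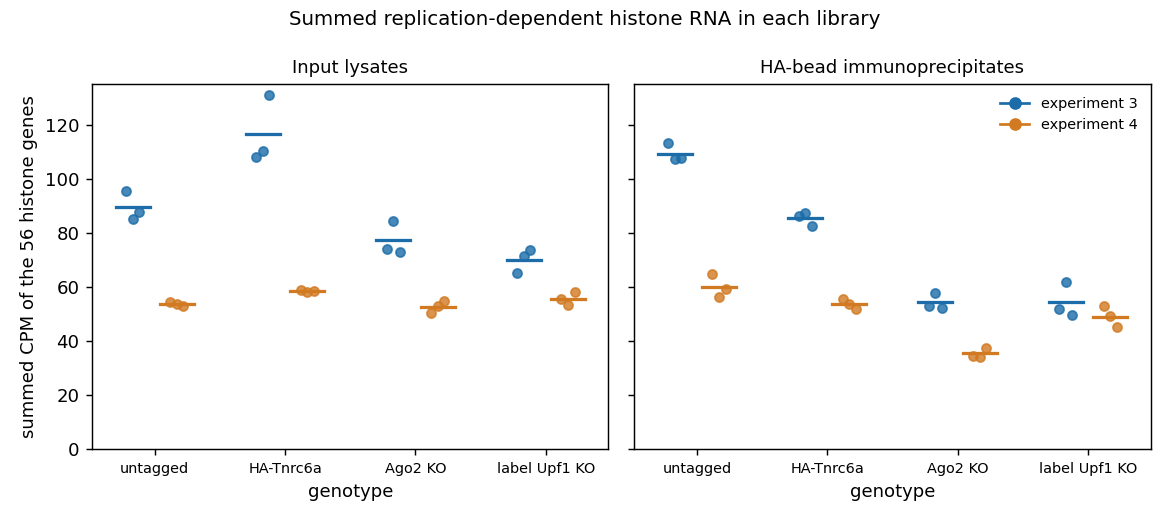
Summed CPM of the 56 replication-dependent histone genes in each library by genotype, for inputs (left) and immunoprecipitates (right), 1 point a library and lines for group means, experiment 3 in blue and experiment 4 in orange. The experiment 3 inputs of HA-Tnrc6a at 108 to 131 stand above the other genotypes, while the experiment 4 inputs lie between 50.2 and 59.0.

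The HA-Tnrc6a inputs had the highest mean summed CPM of the 4 genotypes in both experiments. Against the untagged control, H1f2 rose by 0.37 ± 0.086, H1f3 by 0.86 ± 0.26 and H2bc4 by 0.20 ± 0.068 on the log2 scale (adjusted p = 0.00336, 0.0221 and 0.0432 by edgeR). H1f2 read 6.70, 6.09 and 6.25 CPM in the untagged inputs of experiment 3 and 7.27, 6.08 and 6.29 in experiment 4. The HA-Tnrc6a libraries were above them in experiment 3, and in experiment 4 1 of them, at 7.21, was not. These 3 of 55 tested (5.45%) compare with 7.74% of all genes higher and 7.67% lower, and no member was lower, also by DESeq2 and at an unadjusted p under 0.05. The median change was 0.28. Without the library that stands apart 2 members were higher, and H1f3 had 0.56 (adjusted p = 0.155 by edgeR). H2bc4 missed the threshold without any 1 of 8 libraries (adjusted p = 0.0508 to 0.16), and H1f3 without any 1 of 3 others (0.0542 to 0.0741, both by edgeR).

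Genes that act on these mRNAs were also counted, from lists drawn up for this purpose. Their counts stand against 29.5% of all genes higher and 29% lower with the Upf1 label, and 15.7% higher and 15.2% lower in the Ago2 knockout. Of 21 genes of histone gene transcription and mRNA 3′ end formation, 5 rose and 12 fell with the Upf1 label (median log2 change -0.13), and 4 rose and 5 fell in the Ago2 knockout. Slbp fell by 0.25 with the Upf1 label and 0.08 in the Ago2 knockout (adjusted p = 3.73e-10 and 0.0332 by edgeR). Its input means were 89.2 and 100.4 CPM in HA-Tnrc6a in experiments 3 and 4, 79.7 and 79.5 with the Upf1 label, and 86.9 and 92.8 in the Ago2 knockout. Lsm11, a subunit of the U7 particle that guides the cut at the 3′ end, rose by 0.36 with the Upf1 label.

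Of 20 genes of histone mRNA decay, 10 rose and 6 fell with the Upf1 label (median 0.05). Those that rose include Upf1 itself at 0.58, its partner Upf2 at 0.68, its kinase Smg1 at 0.80, the Smg5 and Smg6 genes that act on phosphorylated Upf1 at 0.75 and 0.73, the uridylating enzyme gene Tut7 at 0.55 and the decapping enzyme gene Dcp2 at 0.47. Those that fell were the checkpoint kinase gene Atr at -0.29, Lsm4 of the Lsm ring at -0.18, the exosome genes Exosc9, Exosc10 and Dis3 at -0.12, -0.11 and -0.10, and Cnot1, the scaffold of the CCR4-NOT deadenylase, at -0.12. In the Ago2 knockout 3 of the 20 rose and 2 fell.

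Of 28 S phase genes, 11 rose and 15 fell with the Upf1 label (median -0.09), where 29.5% and 29% of all genes did, and 13 rose and 2 fell in the Ago2 knockout (median 0.07), where 15.7% and 15.2% did. Their summed CPM in experiment 3 was 4198 to 4409 in HA-Tnrc6a, 4254 to 4451 with the Upf1 label and 4505 to 4586 in the Ago2 knockout. In experiment 4 it was 4745 to 4828, 4361 to 4441 and 5099 to 5160. Of the 11 replication-independent histone genes, 2 rose and 7 fell with the Upf1 label (median -0.21), among them H2az1 at -0.45 and H1f0 at -0.31, while Cenpa, the centromeric H3, rose by 0.48. In the Ago2 knockout 1 rose and 7 fell (median -0.16), among them H2ax at -0.45 and H1f0 at -0.38.

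Markers of other lineages were counted too. None of the 16 was at 0 in all inputs, while Foxa2 and Col1a2 were at 0 in at least 1. Of the 16 tested, 3 rose and 6 fell with the Upf1 label (background 29.5% and 29%) and 3 rose and 10 fell in the Ago2 knockout (median -0.92, background 15.7% and 15.2%). The 3 that rose in the knockout were the neuroectoderm genes Pax6, Nes and Sox1, at 1.25, 0.47 and 0.42. Those that fell there include the endoderm genes Gata6, Gata4, Sox17, Sox7, Foxa2 and Dab2, at -3.23, -1.22, -2.98, -1.66, -2.79 and -2.73. The summed CPM of the 16 in experiment 3 was 90.7 to 94.1 in HA-Tnrc6a, 60.2 to 66.5 with the Upf1 label and 56 to 61.5 in the Ago2 knockout. In experiment 4 it was 88.9 to 95.1, 121 to 122 and 63.2 to 64.1. Among 10 embryonic stem cell genes, 3 rose and 6 fell with the Upf1 label (median -0.13), including Pou5f1 at -0.37 and Klf2 at -1.19. In the Ago2 knockout 7 of the 10 rose and 1 fell (median 0.16). The part of these changes in the histone results was not tested.

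With the Tnrc6a beads, 27 members were depleted and H1f2 alone among the 56 was enriched. Enrichment is the IP over input ratio in HA-Tnrc6a relative to the same ratio in the untagged control, which measures what the beads hold without a tag. By edgeR, 27 of 56 members (48.2%) were lower and 1 (1.79%) higher at an adjusted p under 0.05, where 32.2% of all genes were lower and 29.8% higher. The median log2 enrichment was -0.79 (all genes -0.10), or -1.0 in experiment 3 and -0.54 in experiment 4, and 53 of 56 were negative. The depleted genes were 4 of 6 H1, 7 of 15 H2A, 8 of 14 H2B, 4 of 11 H3 and 4 of 10 H4.

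H1f2 read 17.7, 18.5 and 17.7 CPM in the HA-Tnrc6a IPs of experiment 3 against 7.91, 8.59 and 10.3 in their inputs, and 7.70, 9.82 and 8.37 in the untagged IPs against 6.70, 6.09 and 6.25. In experiment 4 the HA-Tnrc6a IPs read 17.1, 14.2 and 12.7 and the untagged IPs 8.17, 7.76 and 7.91. Each HA-Tnrc6a IP was above each untagged IP and each input of both lines. The log2 enrichment was 0.61 ± 0.13 (adjusted p = 7.91e-05 by edgeR), with 0.55 in experiment 3 and 0.68 in experiment 4.

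H2bc4 went the other way. Its HA-Tnrc6a IPs read 14.6, 17.7 and 17.2 CPM in experiment 3, below their inputs of 24.2, 24 and 22, while the untagged IPs read 30.1, 23.8 and 27.8. In experiment 4 they read 14.0, 13.6 and 14.5, within the range of their inputs, and the untagged IPs 17.9, 14.8 and 15.6. The log2 enrichment was -0.65 ± 0.11 (adjusted p = 3.6e-06 by edgeR).

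H2bc23, whose promoter is printed above, read 2.56, 2.61 and 1.57 CPM in the HA-Tnrc6a IPs against 2.57, 3.38 and 4.32 in the untagged IPs of experiment 3, and 1.07, 1.56 and 1.29 against 3.56, 3.01 and 3.50 in experiment 4. The groups overlapped in experiment 3 and were apart in experiment 4. Its log2 enrichment was -1.17 ± 0.22, and that of H2bc24 -0.88 ± 0.22 (adjusted p = 1.98e-05 and 0.000709 by edgeR).

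The other linker histones did not follow H1f2. H1f4 read 1.24, 1.34 and 1.64 CPM in the HA-Tnrc6a IPs and 3.47, 2.92 and 1.15 in the untagged IPs of experiment 3, which overlap, and 0.437, 0.306 and 0.332 against 0.823, 0.979 and 0.936 in experiment 4, which do not. Its log2 enrichment was -1.28 ± 0.38 and that of H1f3 -1.31 ± 0.38 (adjusted p = 0.00406 and 0.00358 by edgeR), while H1f1 had -0.80 ± 0.43 (0.108).

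Among core histone genes, H2ac23 had -1.04 ± 0.34, H2ac24 -0.79 ± 0.29, H4c9 -0.73 ± 0.26, H3c10 -1.0 ± 0.34 and H4c4 -1.17 ± 0.40, all past the threshold. H3c14 had -0.38 ± 0.26 and H3c8 -0.15 ± 0.33, which did not pass. H2ac8 was lower on average (-0.68 ± 0.28, adjusted p = 0.0346 by edgeR) but had -1.63 in experiment 3 and 0.27 in experiment 4. The test of the difference between experiments called 0 members by edgeR and by DESeq2, with 3 at an unadjusted edgeR p under 0.05, where 0.365% of all genes were called. Without the library that stands apart 21 members were depleted and H1f2 was enriched. H2ac8 missed the threshold without any 1 of 10 libraries (adjusted p = 0.0525 to 0.0877 by edgeR).

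Members with and without an octamer match are set side by side, with no test. Those with a match include H2ac8 and H2bc8, which share the same octamer, and H2ac12 and H2bc12, which do so too. The 8 tested members with an octamer match had a median log2 enrichment of -0.58 with 4 depleted, and the 42 without -0.81 with 19 depleted. For the inputs of the Upf1 label the medians were -0.47 over 7, of which 3 fell, and -0.53 over 41, of which 15 fell.

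**Figure D4:**
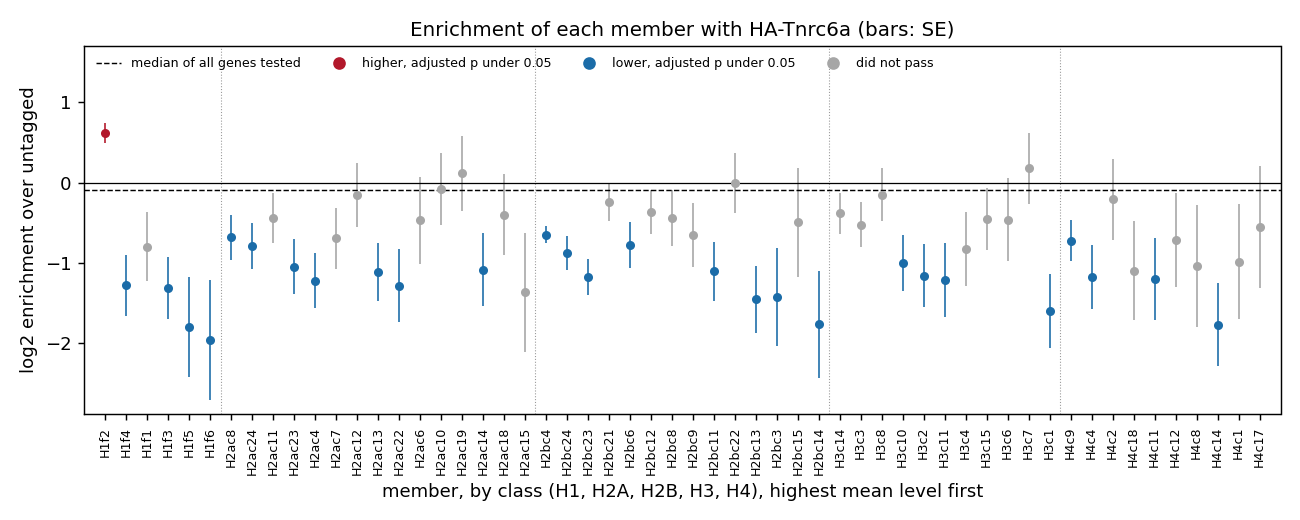
Log2 enrichment (IP over input, HA-Tnrc6a over untagged) of the 56 members by class, highest mean level first; points are averages over both experiments, bars are SE and the dashed line is the median of all genes tested. H1f2 at 0.61 is the single point in red (higher), 27 points are blue (lower) and the rest did not pass.

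The related lists held both enriched and depleted genes, where 29.8% of all genes were higher and 32.2% lower. Of the 21 transcription and 3′ end genes 7 were higher and 11 lower with HA-Tnrc6a. The highest were E2f1, a transcription factor of S phase entry, at 2.73 and Npat, the activator of histone gene transcription, at 2.06, while Lsm11 had 0.86 and Slbp -0.41. Of the 20 decay genes 8 were higher, among them Eri1, an exonuclease of the histone mRNA end, at 3.09 and Dcp2 at 2.40, and 8 lower. Of the 11 replication-independent histone genes 1 was higher and 8 lower (median -0.55), and of 28 S phase genes 11 were higher and 14 lower.

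Recovery of H1f2 on the beads fell in the Ago2 knockout, and its change with the Upf1 label did not pass the test. Recovery is the IP over input ratio of a knockout relative to that of HA-Tnrc6a. In the Ago2 knockout the H1f2 IPs read 7.90, 6.93 and 5.75 CPM in experiment 3 and 8.37, 8.44 and 9.06 in experiment 4, each below the HA-Tnrc6a IPs. In experiment 3 these knockout IPs overlapped the untagged IPs of 7.70, 9.82 and 8.37 CPM. In experiment 4 each was above the untagged IPs of 8.17, 7.76 and 7.91 CPM. The log2 change in recovery was -0.74 ± 0.13 (adjusted p = 5.42e-05 by edgeR), with -0.75 in experiment 3 and -0.73 in experiment 4. H3c7, a low H3 gene, had -1.34 ± 0.46 (adjusted p = 0.0338 by edgeR).

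These 2 of 56 (3.57%) were the members lower, where 12.3% of all genes were lower and 9.09% higher, and no member was higher, also by DESeq2 and at an unadjusted p under 0.05. The median was -0.27, and H2bc4 had 0.10 ± 0.11. Without the library that stands apart 3 members were lower, H1f4 being added with -1.04 (adjusted p = 0.0422 by edgeR). The count was 1 in 11 of the fits that leave out 1 library and 4 without Ago2 knockout IP replicate 3 of experiment 4, and H1f2 passed in each.

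With the Upf1 label the H1f2 IPs read 9.74, 9.25 and 10.4 CPM in experiment 3, against inputs of 4.26, 5.11 and 5.18, and 18.8, 15.3 and 15.0 in experiment 4, against 7.88, 8.85 and 8.30. Each IP was above each input of its experiment. The change in recovery was 0.08 ± 0.12 for H1f2 and 0.02 ± 0.13 for H2bc4 (adjusted p = 0.81 and 0.96 by edgeR). Of 54 members tested 0 passed by edgeR and by DESeq2, with 2 at an unadjusted edgeR p under 0.05, where 2.92% of all genes were higher and 1.57% lower. Compared without their inputs, the IPs of this label did have members called lower, as given in the last section. The median was -0.02.

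**Figure D5:**
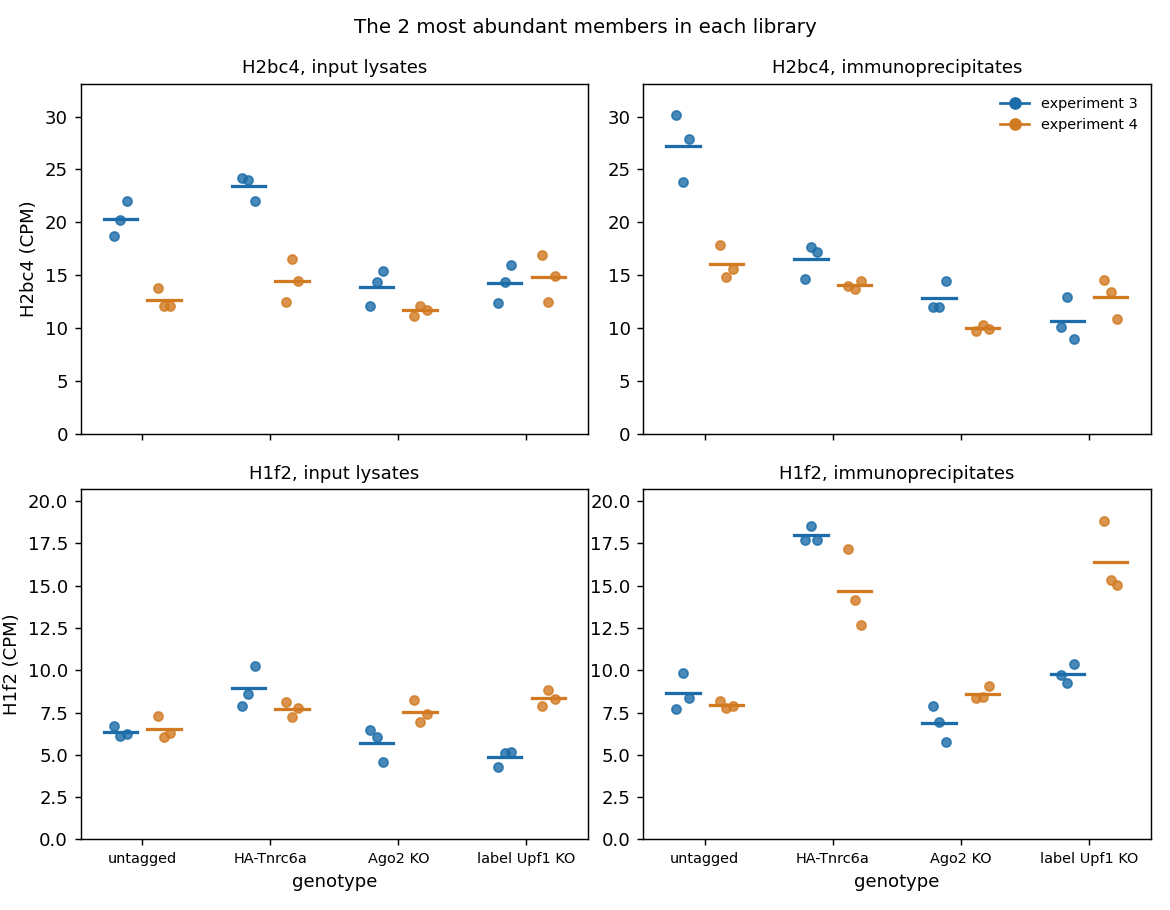
CPM of H2bc4 (upper row) and H1f2 (lower row) in each library by genotype, inputs on the left and immunoprecipitates on the right, 1 point a library and lines for group means, experiment 3 in blue and experiment 4 in orange. H1f2 stands at 12.7 to 18.5 CPM in the HA-Tnrc6a IPs and at 5.75 to 9.06 in the Ago2 knockout IPs.

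Some of these RNAs were also higher on the beads without a tag. In the untagged control, 7 members were higher in the IPs than in the inputs and none lower, of 55 tested (12.7%), where 18% of all genes were higher and 17.8% lower. By DESeq2 the counts were the same, and at an unadjusted edgeR p under 0.05 there were 9 higher and 1 lower. Scaling by library totals called 4 higher and 5 lower and moved the median of all genes from -0.03 to -0.20. H1f2 and H3c14 then had 0.19 and 0.37 and did not pass (adjusted p = 0.117 and 0.144 by edgeR), while H2ac8, H2ac11 and H3c3 were among the 5 lower. H2bc23 and H2bc24 each rose by 0.58 ± 0.15 on the log2 scale, H2bc4 by 0.38 ± 0.079, H1f2 by 0.36 ± 0.094 and H1f4 by 0.81 ± 0.25 (adjusted p = 0.00363, 0.00458, 0.000723, 0.00521 and 0.0138 by edgeR). H3c14 and H2bc6 had 0.54 ± 0.20 and 0.51 ± 0.19 (0.041 and 0.0436), and H3c14 missed the threshold without any 1 of 7 libraries (adjusted p = 0.0674 to 0.126 by edgeR). The median over tested members was 0.01.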

How the data were processed

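Whole-number counts per gene were used as deposited by the authors. Per the submitters' processing notes, STAR 2.7.3a and bcl2fastq 2.20 were used with GRCm38. The counting tool is not given in the sources used here, apart from QuasR in the name of the length column, per the file headers. Per the labels' protocols, RNA was purified with a DNase step and libraries were stranded total RNA. A further 48 columns of per-sample values were not used.

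Counts were tested with edgeR 4.0.16 in R 4.3.3 (limma 3.58.1): TMM scaling, filterByExpr with a minimum count of 10, 1 coefficient for each group of a comparison, a quasi-likelihood F test of the contrast averaged over both experiments, two-sided, with Benjamini-Hochberg adjustment over all genes tested and a threshold of 0.05. The SE is the log2 change over the square root of F. Printed CPM are scaled by TMM over all 48 libraries, with SD over 3 libraries. Differences between experiments are experiment 4 minus experiment 3. Totals of 11471544 to 73845953 counts set the precision. The scripts were tested on simulated data. Named genes are the 4 highest of each class and up to 3 called genes in each direction with a log2 CPM of at least 3; others are named beside a count. H1f5, H4c12, H3c7, H3c15, H2bc6, H2bc8, H2bc11 and H2bc12 were named after their values were seen. The members and lists were chosen with earlier results of these data known. Alternatives were library totals, no filter, a fit over all libraries, DESeq2 1.42.0, each experiment alone, IPs without inputs, a replicate block and leaving out each library. Promoter motifs were searched on both strands with Python 3.11.15. Figures were drawn with matplotlib 3.10.9.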

Additional observations from a re-analysis of the deposited data

Results flagged for a closer look

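The changes that differed between the 2 experiments passed edgeR's test of the difference itself, adjusted over all genes. In the inputs of the Upf1 knockout label, 7 of 54 members tested differed, where 11.6% of all genes did. The count is near that share, so it is not read as particular to histone genes. Each of the 7 had the more positive value in experiment 4. H1f2 differed by 1.03 ± 0.17 on the log2 scale (adjusted p = 1.71e-05), from -0.90 in experiment 3 to 0.13 in experiment 4. H2bc4 differed by 0.78 ± 0.15 (0.000414), from -0.73 to 0.05. H4c9 differed by 1.61 ± 0.32 (0.000268), from -0.79 to 0.82. H4c2 differed by 1.82 ± 0.54 (0.0186), from -1.22 to 0.60, and H2bc24 by 1.02 ± 0.28 (0.0114), from -0.71 to 0.31.

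In the inputs of the Ago2 knockout, 2 of 56 members differed, where 5.94% of all genes did. The count is not above that share and is not read as particular to histone genes. H1f2 went from -0.65 to -0.03, a difference of 0.61 ± 0.18 (adjusted p = 0.0317 by edgeR). H2bc4 went from -0.75 to -0.31, a difference of 0.44 ± 0.13 (0.0389). Of 12 fits that leave out 1 library 9 called 1 member, and the others called 0, 2 and 4. A fit over all 48 libraries called 0, and 4 for the Upf1 label. Both comparisons use the same HA-Tnrc6a inputs. No explanation was tested.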

How the results depend on the processing

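The experiments taken alone moved most counts of called members. For the Upf1 label inputs, experiment 4 alone called 2 of 47 (1 higher, 1 lower), and H1f2, H2bc4 and H4c4 then had 0.13, 0.051 and 0.0066, while H4c9 had -0.78 in experiment 3 alone. For the Ago2 knockout inputs experiment 4 alone called 2, and H3c3 had 0.049. For HA-Tnrc6a against untagged inputs the experiments called 1 and 0, for enrichment 13 and 10 with H2ac8 at 0.22 in experiment 4, and experiment 3 alone called 1 in Ago2 knockout recovery and 1 on untagged beads. These fits use fewer samples, and the shares of all genes called in them are not given here. The fit over all 48 libraries called 4 and 0 members as differing between experiments with the Upf1 label and the Ago2 knockout. IPs compared without their inputs called 16 in place of 28 for HA-Tnrc6a, 13 for the Upf1 label (all lower) and 10 for the Ago2 knockout, with H1f2 and H2bc4 at -0.34 and -0.36 for the label, and H2bc4, H2bc24 and H3c14 at -0.39, -0.65 and -0.52 for the knockout. The cause was not tested beyond this construction. The shares of all genes called in the fits without inputs are not given here, so these counts are not read as particular to the members. DESeq2 called 1 in Ago2 knockout recovery. Scaling by library totals called 4 higher and 5 lower on untagged beads, and moved the median of all genes from -0.10 to -0.25 in enrichment and from -0.03 to -0.20 on untagged beads.

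Leaving out 1 library gave 15 to 24 called for the Upf1 label inputs (5 to 9 differing between experiments), 7 to 15 for the Ago2 knockout (0 to 4), 2 to 4 for HA-Tnrc6a against untagged, 22 to 30 for enrichment (0 to 1), 0 for Upf1 label recovery, 1 to 4 for Ago2 knockout recovery and 5 to 7 on untagged beads. The smallest count of 7 was without HA-Tnrc6a input replicate 3 of experiment 3. With a replicate block, the counts in that order were 20 (8), 11 (2), 4, 26 (0), 0, 1 and 7. For these fits too, the shares of all genes called are not given here. Over 168 pairs of same-numbered libraries the mean correlation of deviations was 0.0255, and 14 were over 0.1, the highest at 0.409. The 24 of these taken as input and IP of 1 lysate had a mean of 0.0433, with 3 over 0.1. Low correlations do not show that libraries are unpaired, and no fit gave each lysate a term of its own. Low counts, under 10 on average for 14 members, limit what could be detected.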
